A study of Mus musculus with 10 samples.

Results

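Genes of the interstitial cells of the gut wall were followed in RNA-seq libraries of mouse intestine. They were taken by name, as *Kit*, *Ano1* and *Etv1* for the interstitial cells of Cajal and *Pdgfra*, *P2ry1* and *Kcnn3* for the PDGFRA-positive cells, which makes 6 of the 35275 gene IDs counted. *Myh11*, the myosin heavy chain of smooth muscle, was set beside them. Each library came from 1 mouse and is labelled as proximal intestine, with 5 WT mice and 5 KO mice labelled as 8 to 10 weeks of age. The KO mice are labelled as a knockout of *Slc39a14*, the gene of the zinc transporter Zip14, whose counts were lower in them but not at 0. The methods of the study describe this knockout as one of the whole body, with both genotypes bred from heterozygous parents, whereas the title of the series names a deletion in enterocytes. Both groups were on one strain and one commercial diet, and both sexes were used without a record for single mice.

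Interstitial cells of Cajal lie between the muscle layers of the gut and generate the slow waves that pace its contractions. They depend on the receptor tyrosine kinase KIT and its ligand, stem cell factor, and their pacemaker current is carried by the calcium-activated chloride channel ANO1. The ETS-family transcription factor ETV1 is a lineage factor of these cells that KIT signalling stabilises. PDGFRA-positive cells sit beside them and receive purines from inhibitory motor neurons. The purines act on the receptor P2Y1, encoded by *P2ry1*, which releases calcium and opens the small-conductance potassium channel SK3, encoded by *Kcnn3*, so that the coupled smooth muscle relaxes. None of the genes is restricted to these cells. KIT is also carried by mast cells, ANO1 by secretory epithelia such as the acini of the pancreas, ETV1 by some neurons, and PDGFRA by the mesenchyme beneath the epithelium.

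*Kit* and *Pdgfra* are neighbours. On GRCm38, with GENCODE M21, *Pdgfra* spans chr5:75152292-75198215 and *Kit* spans chr5:75574916-75656722, both on the plus strand, with 376700 bases between them. *Kdr*, the gene of a receptor for vascular endothelial growth factor, follows at chr5:75932827-75978458 on the minus strand, 276104 bases beyond *Kit*. *P2ry1* (chr3:61002795-61008982) and *Kcnn3* (chr3:89520164-89675132) share chromosome 3 on the plus strand. *Ano1* lies at chr7:144588549-144751974 on the minus strand, and *Etv1* at chr12:38779380-38870484 on the plus strand. The 30 bases before the RefSeq start site (build GRCm38.p6, strand of the gene) are given for the 4 members that differed between the groups. These starts are not the ends of the GENCODE spans above: that of *Ano1* is at 144738573, inside its span. Which start this tissue used was not tested. The capitals mark a GC box, the letters GGGCGG that the factor SP1 recognises.

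*Kit*, chr5:75574957-75574986, plus strand, the first of 2 starts: ctagtggctctgggggctcggctttgccgc
*Ano1*, chr7:144738574-144738603, minus strand: actagagcgccggGGGCGGagcagcgcggt
*Etv1*, chr12:38780052-38780081, plus strand, the first of 2 starts: gttttaacaaaaacagcgagttaggaagga
*P2ry1*, chr3:61002755-61002784, plus strand: ccaccccgctgggagcctggctttctctcc

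All 6 members had a promoter window of 300 bases, reaching from 250 bases before the start to 50 after it. The window of *Ano1* was 71.7% G and C, that of *P2ry1* 70.7%, that of *Kit* 69%, that of *Kcnn3* 57.7% and that of *Pdgfra* 51%. The first window of *Etv1* was 48.7% G and C, against a median of 52.7% over all windows. On either strand, the GC box was found at 4 places in the window of *Ano1*, at 2 in that of *P2ry1* and at 1 in that of *Kit*, and at 0 in the others, while 35.7% of all 32851 windows hold it. The ETS core CCGGAA was found in the window of no member (14.9% of all windows hold it), and neither was the CArG box of smooth muscle genes (1.63%). The TATA box TATAAA was found only in the second window of *Etv1* (13.6%). The 3 members that rose in KO mice therefore included 2 with GC-rich windows and 1 without, and these letter matches are a description and no evidence of binding.

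Library totals were between 16729787 and 20819678 counts in WT mice and between 17118742 and 19414828 in KO mice. *Slc39a14* was lower in all 5 KO libraries than in any WT library, from 78.4 to 160 CPM (counts scaled to a common library size) against 190 to 356 CPM, and KO replicate 1 was the highest of the KO group. These counts take in the whole gene, so they do not show which exons were lost. In every KO library, genes of other cells and of another gut position stood apart from WT. *Fabp6*, which binds bile acids in ileal enterocytes, had between 0.0637 and 1.73 CPM in WT mice and between 2303 and 9044 CPM in KO mice, and 6 of 7 ileal genes were called higher. Of 10 genes of absorptive enterocytes 6 were called lower, and of 12 smooth muscle genes 10 were called higher. The summed level of the smooth muscle genes was 1631 to 2667 CPM in WT and 3606 to 10454 CPM in KO mice, with KO replicate 4 at the top. Because all KO libraries share these features, the position and layers of the tissue taken and the genotype cannot be told apart in any comparison below.

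All 6 members passed the filter on low counts. CPM here are counts divided by the library size after TMM scaling, which sets the bulk of the genes to the same level in each library. Per kilobase of exon, the order of the levels in WT mice was *P2ry1* with 11.7 ± 0.514, *Pdgfra* with 7.87 ± 0.446, *Kit* with 3.07 ± 0.626, *Ano1* with 2.28 ± 0.441, *Kcnn3* with 0.662 ± 0.154 and *Etv1* with 0.475 ± 0.0649 CPM per kb (SD, n = 5). The gap between *Kit* and *Ano1* was larger than either SD but smaller than both SDs added, and so was that between *Kcnn3* and *Etv1*. Per kilobase, *Kit* was above *Ano1* and *Kcnn3* above *Etv1* in every WT library. In KO mice the values were 9.38 ± 1.06 for *P2ry1*, 7.02 ± 2.19 for *Pdgfra*, 6.87 ± 2.34 for *Kit*, 4.80 ± 1.77 for *Ano1*, 0.755 ± 0.258 for *Etv1* and 0.703 ± 0.165 CPM per kb for *Kcnn3* (SD, n = 5). There, *Pdgfra* and *Kit* lay within their SDs of each other, and so did *Etv1* and *Kcnn3*. The gap between *P2ry1* and *Pdgfra* was larger than either SD. That between *Kit* and *Ano1* was larger than the SD of *Ano1* but not that of *Kit*. The high place of *P2ry1* is less certain, since 23.1% of its exon bases lie opposite the antisense gene *Gm37035* and no source used here says whether the counting heeded strand. For *Pdgfra*, 4.55% and 1.66% of the exon bases lie opposite other transcripts.

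*Kit* encodes the receptor that interstitial cells of Cajal need for their development and upkeep. WT replicates 1 to 5 had 23.6, 21.2, 25.7, 31.6 and 34.6 CPM. KO replicates 1 to 5 had 49.1, 75.9, 88.7, 55.8 and 36.8 CPM. The lowest KO library stood just above the highest WT library, so that the groups did not overlap, while the KO libraries were spread more widely. *Kit* rose by 1.16 on the log2 scale, 2.24-fold (standard error 0.23, 95% interval 0.66 to 1.67, edgeR quasi-likelihood adjusted p = 0.0047). Leaving out each library in turn gave between 0.98 and 1.3, always past the threshold. With *Myh11* as a covariate, whose groups do not overlap, the change was 0.94 and was not called (adjusted p = 0.259).

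*Ano1* encodes the chloride channel of the pacemaker current. It had 12.4, 10.3, 16.0, 16.2 and 16.3 CPM in WT replicates 1 to 5. KO replicates 1 to 5 had 19.0, 34.8, 35.7, 42.7 and 17.8 CPM. KO replicates 2, 3 and 4 were far above WT and the other 2 only just above, again without overlap. *Ano1* rose by 1.07 on the log2 scale, 2.11-fold (standard error 0.25, 95% interval 0.52 to 1.63, edgeR adjusted p = 0.0103). Without any single library the change was between 0.91 and 1.21 and past the threshold. With *Myh11* as a covariate it was 0.46 and was not called (adjusted p = 0.570).

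*Etv1*, the transcription factor of the group, was the lowest of the 3 Cajal cell genes. It had 5.65, 5.16, 6.70, 6.97 and 7.11 CPM in WT replicates 1 to 5, and 7.65, 10.7, 8.46, 15.8 and 7.65 CPM in KO replicates 1 to 5. The groups did not overlap, but the KO libraries other than replicates 2 and 4 lay close to the WT range. *Etv1* rose by 0.67 on the log2 scale, 1.59-fold (standard error 0.22, 95% interval 0.20 to 1.14, edgeR adjusted p = 0.0382). This call rested on single libraries: without KO replicate 4 the change was 0.45 (adjusted p = 0.0602), and the adjusted p stayed under 0.05 only without KO replicates 1, 3 or 5, with a range of 0.0242 to 0.0916 over all libraries left out. *Etv1* also missed the threshold with the replicate number as a block (0.62, edgeR adjusted p = 0.0589) and with no filter on low counts (0.64, adjusted p = 0.0510). With *Myh11* as a covariate the change was 0.074 (adjusted p = 0.929).

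*Pdgfra* encodes the receptor for platelet-derived growth factors A and C. It had 79.1, 71.1, 82.2, 80.4 and 81.5 CPM in WT replicates 1 to 5. KO replicates 1 to 5 had 77.4, 98.2, 79.4, 53.7 and 43.0 CPM. One KO library was above the WT range, 2 lay within it and 2 below it, so that the KO group was spread on both sides of a narrow WT group. The difference of -0.17 on the log2 scale (standard error 0.19, 95% interval -0.58 to 0.25) did not pass the threshold (edgeR adjusted p = 0.530), and the interval leaves room for a loss of up to 0.58 or a gain of up to 0.25.

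*P2ry1*, the gene of the purine receptor, had 48.6, 53.9, 50.4, 49.1 and 48.8 CPM in WT replicates 1 to 5. KO replicates 1 to 5 had 42.5, 44.3, 42.9, 38.4 and 33.1 CPM. All 5 KO libraries were below all 5 WT libraries, and both groups were tight. *P2ry1* fell by 0.32 on the log2 scale, to 0.803 of the WT level (standard error 0.09, 95% interval -0.52 to -0.12, edgeR adjusted p = 0.0241). The call was lost without WT replicate 2 (-0.29, adjusted p = 0.0614) and without WT replicate 3 (-0.32, adjusted p = 0.0503), and when libraries were scaled by size only the difference was -0.19 (adjusted p = 0.156). With *Myh11* as a covariate it was -0.22 (adjusted p = 0.517).

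*Kcnn3*, the potassium channel gene downstream of that receptor, was low in both groups. It had 5.23, 6.43, 7.16, 6.26 and 9.51 CPM in WT replicates 1 to 5 and 6.47, 9.06, 7.17, 8.99 and 5.03 CPM in KO replicates 1 to 5. The groups lay over each other. The difference was 0.09 on the log2 scale (standard error 0.21, 95% interval -0.37 to 0.54, edgeR adjusted p = 0.775), from 96 to 189 counts per library, and a change within that interval was not detectable here.

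**Figure D1:**
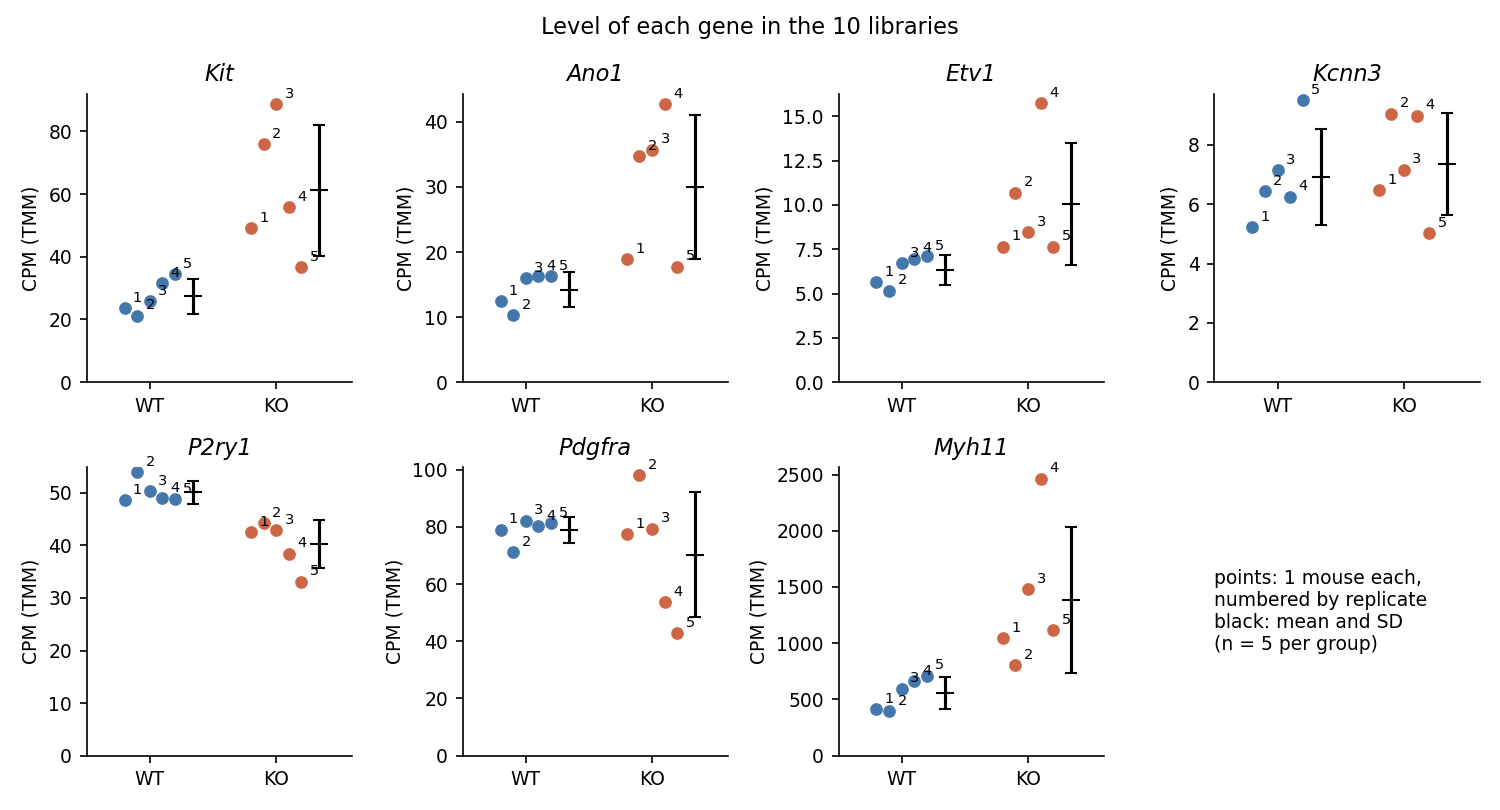
Level of each member and of *Myh11* in CPM after TMM scaling (vertical axes, linear, from 0) for WT and KO mice (horizontal axes). Each point is 1 mouse numbered by its replicate, and the black bar gives the mean and SD (n = 5 per group). *Kit*, *Ano1*, *Etv1* and *Myh11* are higher and *P2ry1* lower in every KO library, while the groups overlap for *Kcnn3* and *Pdgfra*.

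Among the 6 members, 3 were called higher, 1 was called lower and 2 were not called. Over all 15610 genes tested, edgeR called 16% higher and 13.9% lower, 29.9% in all, so that calls were common in this comparison. The same 4 members were those whose groups did not overlap, which held for 10.2% of all genes on the higher and 10.8% on the lower side. Scaled by library size only, the same 3 members were called higher against 22.9% of all genes, and 0 lower. The median log2 fold change of the members was 0.38, against 0.03 over all genes tested. The members did not move as one group: the 3 Cajal cell genes were higher in every KO library, and of the 3 genes of PDGFRA-positive cells 1 fell and the others were not called. In whole tissue, fewer cells of a type and less RNA per cell cannot be told apart.

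*Myh11* was then set beside the members. It had 415, 393, 595, 663 and 712 CPM in WT replicates 1 to 5 and 1048, 807, 1479, 2463 and 1114 CPM in KO replicates 1 to 5. Every KO library was above WT, with KO replicate 4 highest. *Myh11* rose by 1.31 on the log2 scale, 2.49-fold (standard error 0.30, edgeR adjusted p = 0.00900), and by 1.0 (adjusted p = 0.0109) without KO replicate 4.

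The change in the ratio of each member to *Myh11* was tested by scaling each library to its *Myh11* count. On this scale the median over all genes moved by -1.17, and 75.8% of all genes were called, 74.8% lower and 0.987% higher, so that a lower ratio was the rule. *Kit* had between 4.33% and 5.69% of the *Myh11* CPM in WT and between 2.26% and 9.40% in KO libraries. Relative to *Myh11*, KO replicates 2 and 3 were above the WT range, at 9.40% and 6.0%, and replicates 4 and 5 below it, at 2.26% and 3.30%. The log2 change in the ratio of *Kit* was 0.03 (standard error 0.36, 95% interval -0.71 to 0.78, edgeR adjusted p = 0.934). The interval is wide, and it does not show that *Kit* and *Myh11* changed alike.

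*Ano1* had 2.29% to 3.0% of the *Myh11* CPM in WT and 1.59% to 4.31% in KO libraries, with a log2 change in the ratio of -0.14 (standard error 0.33, 95% interval -0.82 to 0.55, edgeR adjusted p = 0.710). For *Etv1* the shares were 0.998% to 1.36% and 0.572% to 1.32%, and the log2 change of -0.57 was not called (standard error 0.33, 95% interval -1.25 to 0.12, adjusted p = 0.120). It was called lower without KO replicate 2, at -0.83 (adjusted p = 0.0127, against 0.0127 to 0.253 over all libraries left out). The levels of *Ano1* and *Etv1* thus rose per library, while their ratios to *Myh11* had estimates below 0 that did not pass the test. For *Etv1* the ratio was called lower with the smooth muscle list in place of *Myh11* (-0.61, edgeR adjusted p = 0.0411), with the replicate number as a block (-0.63, edgeR adjusted p = 0.0486) and by an exact permutation test (-0.62, unadjusted p = 0.0397).

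*P2ry1*, *Pdgfra* and *Kcnn3*, taken here for the PDGFRA-positive cells, fell relative to *Myh11* in the whole tissue. *P2ry1* had 11.7%, 13.7%, 8.46%, 7.40% and 6.86% of the *Myh11* CPM in WT replicates 1 to 5 and 4.06%, 5.48%, 2.90%, 1.56% and 2.97% in KO replicates 1 to 5, without overlap. Such a lower ratio without overlap held for 53.2% of all genes. Its ratio fell by 1.5 on the log2 scale (standard error 0.37, edgeR adjusted p = 0.00271). *Pdgfra* had 11.4% to 19.0% in WT and 2.18% to 12.2% in KO libraries, where only KO replicate 2 reached the WT range. Its ratio fell by 1.27 (standard error 0.40, adjusted p = 0.00926). The ratio of *Kcnn3* fell by 1.07 (standard error 0.36, adjusted p = 0.0116), from 0.943% to 1.64% in WT to 0.365% to 1.12% in KO libraries. In all, 3 of 6 members were called lower and 0 higher, beside the 74.8% of all genes, and the shifts of *P2ry1*, *Pdgfra* and *Kcnn3* lay near the median of all genes.

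**Figure D2:**
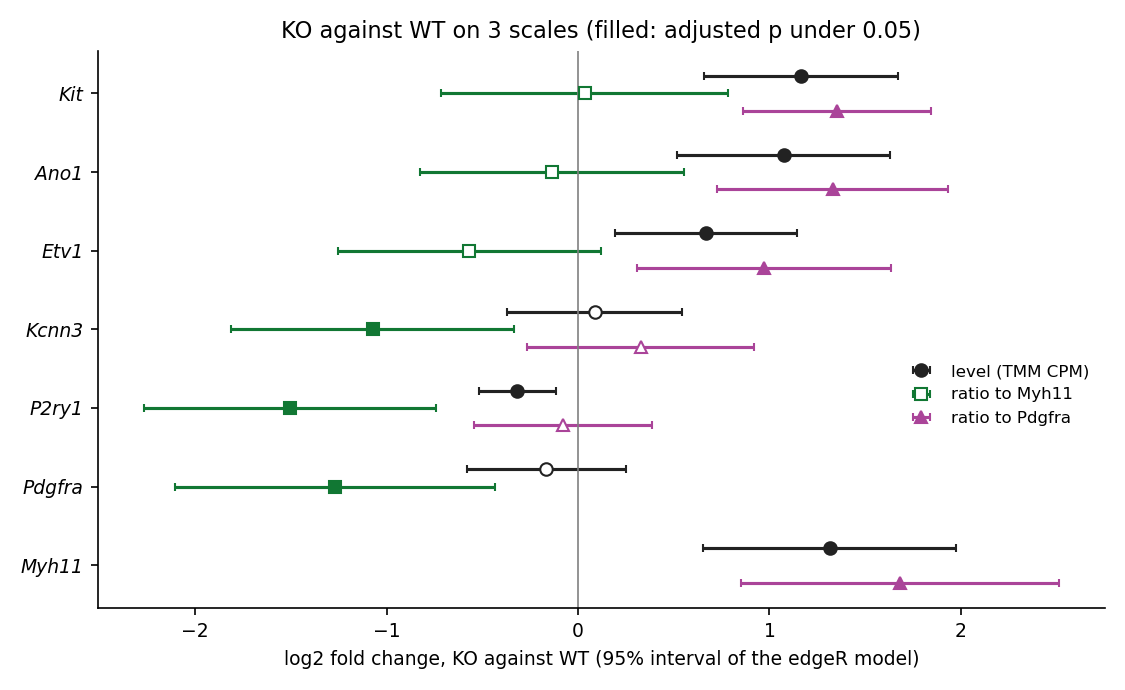
Log2 fold change of KO against WT (horizontal axis) for each member and *Myh11* on 3 scales: the level in TMM CPM (black circles), the ratio to *Myh11* (green squares) and the ratio to *Pdgfra* (purple triangles). Lines are 95% intervals of the edgeR model, and filled symbols have an adjusted p under 0.05. *Kit*, *Ano1* and *Etv1* lie above 0 for the level and for the ratio to *Pdgfra*, with *Ano1* and *Etv1* below 0 and not called for the ratio to *Myh11*.

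Within the WT group, the libraries ranked by *Myh11* as replicates 2, 1, 3, 4 and 5 from lowest to highest. *Kit*, *Ano1* and *Etv1* ranked the same libraries in that very order, which 272 of 15610 genes (1.74%) did. The members of this trio share their libraries with *Myh11*, and the order is a description. In the KO group the order by *Myh11* was 2, 1, 5, 3 and 4, and it was that of 0 of the 6 members and of 1.29% of all genes. *Kit* was highest in KO replicate 3 and second in replicate 2, which had the lowest *Myh11* of its group. *Pdgfra* was lowest in KO replicates 5 and 4 and highest in replicate 2.

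**Figure D3:**
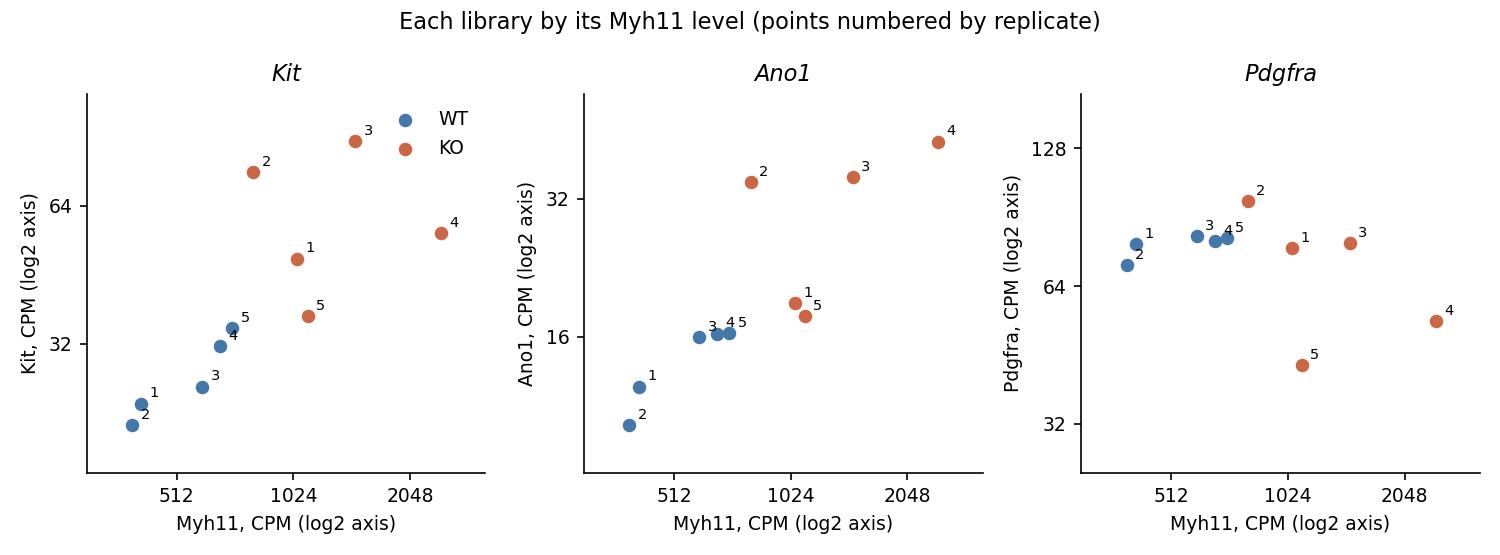
Level of *Kit*, *Ano1* and *Pdgfra* (vertical axes, CPM, log2 axis) against that of *Myh11* (horizontal axes, CPM, log2 axis) in the 10 libraries, numbered by replicate. Among the WT libraries *Kit* and *Ano1* climb with *Myh11* in the order 2, 1, 3, 4 and 5, whereas *Pdgfra* stays between 71.1 and 82.2 CPM, and KO replicate 2 has much *Kit* and *Ano1* at the lowest *Myh11* of its group.

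The Cajal cell genes were also set against *Pdgfra*, a comparison chosen after the values had been seen. *Kit* had 29.9%, 29.8%, 31.3%, 39.3% and 42.4% of the *Pdgfra* CPM in WT replicates 1 to 5 and 63.4%, 77.3%, 112%, 104% and 85.6% in KO replicates 1 to 5. The KO libraries were all higher, and *Kit* passed *Pdgfra* in 2 of them. On this scale, where 17.4% of all genes were called, 13.6% higher and 3.85% lower, and the median gene moved by 0.31, the ratio of *Kit* rose by 1.35 (standard error 0.23, edgeR adjusted p = 0.00103). That of *Ano1* rose by 1.33 (standard error 0.29, adjusted p = 0.00516), from 14.4% to 20.2% in WT to 24.5% to 79.5% in KO libraries. That of *Etv1* rose by 0.97 (standard error 0.32, adjusted p = 0.0419), and by 0.62 without KO replicate 4 (adjusted p = 0.148), with an adjusted p under 0.05 only without KO replicates 1, 2 or 3. The ratios of *Kcnn3* (0.33, 95% interval -0.26 to 0.92) and *P2ry1* (-0.08, 95% interval -0.54 to 0.38) to *Pdgfra* did not pass the test.

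Other cells that carry *Kit*, *Ano1*, *Etv1* or *Pdgfra* were read from their markers, but none were for *P2ry1* or *Kcnn3*. Mast cells carry KIT, and 4 of 10 mast cell genes passed the filter, of which 0 were called higher and 1 lower. DESeq2, run without this filter, called more of the 10 lower. *Cpa3*, the mast cell carboxypeptidase, fell by 1.68 (edgeR adjusted p = 0.0192), and *Mcpt1*, a mucosal mast cell protease, had 8.12 to 41.3 CPM in WT and 0.523 to 14 CPM in KO libraries without a call (-2.28, adjusted p = 0.0514). The summed level of the mast cell genes was 14.3 to 63.7 CPM in WT and 4.71 to 23.4 CPM in KO mice, so that the groups overlapped, and its part in the level of *Kit* was not tested. Between 0 and 3 of these genes were called lower with libraries left out, the number changing without KO replicate 5 or WT replicates 1, 3 or 4. Of 8 acinar genes of the pancreas, *Amy2a5* had 0 counts in all libraries, where a count of 0 may stand for up to 3 counts, *Pnlip* had at most 0.28 CPM, and 0 of the 3 tested were called, with a median of 0.59. The summed level of the acinar genes was 57.1 to 141 CPM in WT and 66.5 to 303 CPM in KO mice, so that the groups overlapped, and its part in the rise of *Ano1* was not tested.

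Enteric neurons, some of which carry ETV1, moved in the direction of *Etv1*: 8 of 10 neuron genes were called higher and 0 lower, with a median of 1.5 on the log2 scale and a summed level of 36.4 to 67.9 CPM in WT and 70.3 to 215 CPM in KO mice. *Uchl1* rose by 1.55 (edgeR adjusted p = 0.00860) and *Elavl4* by 1.24 (adjusted p = 0.0363). With libraries left out in turn between 5 and 9 neuron genes were called higher, with the fewest without KO replicate 3 or WT replicates 1, 2 or 3. All 4 genes of enteric glia were called higher, with a median of 1.55. The part of neurons, glia and muscle in the changes of the members was not tested. Of 6 endothelial genes only *Kdr* was called, lower by 0.71 (adjusted p = 0.00345). Along the row of receptor genes on chromosome 5, *Pdgfra* was thus not called, *Kit* rose and *Kdr* fell.

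The ligands and the partner receptor form a short list, of which 1 of 6 genes was called higher and 0 lower, with a median of -0.06. Among all genes tested the shares were 16% and 13.9%. *Pdgfc*, a ligand of PDGFRA, had 5.44, 5.99, 4.14, 3.84 and 5.37 CPM in WT replicates 1 to 5 and 11.1, 11.6, 9.48, 17 and 16.2 CPM in KO replicates 1 to 5. The groups did not overlap, and *Pdgfc* rose by 1.40, 2.64-fold (standard error 0.20, edgeR adjusted p = 0.000995), with a log2 change in the ratio to *Myh11* of 0.13 (adjusted p = 0.757). *Pdgfa*, the other main ligand of PDGFRA, had the highest level per kilobase of the list, 13.4 ± 1.06 CPM per kb in WT and 13.4 ± 2.96 in KO mice (SD, n = 5), and a log2 difference of 0.0028 (95% interval -0.30 to 0.31). *Kitl*, which encodes the ligand of KIT, was not called. Its level per kilobase lay within the SDs of that of *Pdgfa*, at 12.4 ± 1.35 in WT and 11.3 ± 2.32 in KO mice (SD, n = 5).

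The families of the members were described by the other anoctamins, SK channels, ETV factors of the same subgroup and P2Y receptors. Of 20 such genes 18 were tested, 2 were called higher and 2 lower, and their median was 0.08. Over all genes tested, 16% were called higher and 13.9% lower. *Ano10* rose by 0.59 (edgeR adjusted p = 0.00101) and *P2ry6*, the receptor for UDP, by 0.86 (adjusted p = 0.00291). *Ano3* fell from 1.54 to 9.75 CPM in WT to 0 to 0.337 CPM in KO libraries (edgeR adjusted p = 0.00313). *Ano6*, a lipid scramblase and in WT mice the paralogue with the highest level per kilobase, fell by 1.45 (adjusted p = 0.0436), but KO replicate 1 had 745 CPM, within the WT range of 612 to 927, and the other KO libraries had 82.5 to 192 CPM. Without KO replicate 1 *Ano6* fell by 2.24 (adjusted p = 0.000215), and without any other single library its call was lost, with an adjusted p of up to 0.0911. The list then had 3 genes called lower without KO replicate 1 and 1 without any other library.

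Channels, pumps and junctions of the slow wave and of calcium handling were called higher in 10 of 20 genes and lower in 1, with a median of 0.77. *Kcnj8*, a pore subunit of ATP-sensitive potassium channels, had 4.14 to 10.9 CPM in WT and 18.1 to 61.8 CPM in KO libraries and rose by 1.95 (standard error 0.39, edgeR adjusted p = 0.00467). *Trpc4*, a cation channel, rose by 1.63 (adjusted p = 0.0103). *Ryr3*, a calcium release channel, rose by 1.31 (adjusted p = 0.0346), a call lost without any of KO replicates 3 and 4 and WT replicates 1 to 4. *Hcn4*, a channel of cardiac pacemaking, fell by 1.01 (adjusted p = 0.0170) from a low level of 1.47 ± 0.314 CPM in WT mice (SD, n = 5). The calcium pump gene *Atp2a2*, highest per kilobase in this list, was not called (0.11, 95% interval -0.12 to 0.34). Relative to *Myh11*, 0 of the 20 genes were called higher and 7 lower, where 0.987% of all genes were called higher and 74.8% lower. With libraries left out in turn, 6 to 13 were called higher in level, the lowest number without WT replicates 1 or 2 or KO replicate 3.

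Genes of motor transmission and of extracellular nucleotides were called higher in 3 and lower in 2 of 15 tested, beside 16% and 13.9% of all genes. *Chrm2*, a muscarinic acetylcholine receptor, rose by 1.39 (edgeR adjusted p = 0.00445) and was above WT in every KO library. *Adcyap1r1*, the receptor for PACAP, rose by 1.16 (adjusted p = 0.0454), and its call was lost without KO replicate 4 (0.72) and without KO replicates 3 or 5 or WT replicates 1, 2, 3 or 5. *Pde5a*, a phosphodiesterase that breaks down cyclic GMP, rose by 0.45 (adjusted p = 0.0191), a call lost without WT replicates 2 or 3, where 1 gene of the list was called higher. *P2rx1*, an ATP-gated channel, fell by 1.3 (adjusted p = 0.00315), and *Nt5e*, the ectoenzyme that makes adenosine from AMP, fell by 1.64 (adjusted p = 0.0194). *Nt5e* had 136 to 221 CPM in WT and 11.8 to 95.9 CPM in KO libraries, without overlap.

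Other genes described for interstitial cells of Cajal, with feedback genes of the ERK pathway, were called higher in 7 of 10 and lower in 0, with a median of 1.02. *Thbs4*, a matricellular thrombospondin, had 0.725, 0.510, 1.05, 0.933 and 1.40 CPM in WT replicates 1 to 5. KO replicates 1 to 5 had 2.08, 5.34, 8.57, 8.42 and 5.76 CPM, all above WT. *Thbs4* rose by 2.70, 6.49-fold (standard error 0.39, edgeR adjusted p = 0.00108), and it was the 1 gene of the list whose ratio to *Myh11* was called higher (1.48, standard error 0.39, adjusted p = 0.00370). *Hand2* and *Hand1*, transcription factors of gut mesenchyme, rose by 1.70 (adjusted p = 0.00890) and 1.35 (adjusted p = 0.0325), and *Prkcq*, a protein kinase C also known from gastrointestinal stromal tumours, by 1.27 (adjusted p = 0.0175). The call of *Hand1* was lost without KO replicate 4 (0.89) or WT replicates 1, 2 or 3. *Dusp6*, a phosphatase induced by ERK, was highest per kilobase and was not called (-0.14, 95% interval -0.53 to 0.26).

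Mucosal mesenchyme, where PDGFRA is also found, gave 6 higher and 1 lower among 18 genes, with a median of 0.13. *Grem1*, a secreted inhibitor of BMP signalling, had 18.4 to 51.5 CPM in WT and 71.4 to 182 CPM in KO libraries and rose by 1.95 (edgeR adjusted p = 0.00204), also relative to *Myh11* (0.75, adjusted p = 0.0405). *Lum* and *Dcn*, proteoglycans of fibroblasts, rose by 1.5 (adjusted p = 0.00273) and 0.86 (adjusted p = 0.00160), and *F3*, tissue factor, by 1.17 (adjusted p = 0.00366). *Cd81*, a tetraspanin, fell by 0.55 (adjusted p = 0.0133), and without KO replicate 1 in all 3 genes of the list were called lower. *Adamdec1*, a secreted protease of mucosal fibroblasts and the highest gene of the list per kilobase, had 161 to 234 CPM in WT and 151 to 425 CPM in KO libraries and was not called (0.65, adjusted p = 0.0730), except without KO replicate 4 (adjusted p = 0.0110).

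**Figure D4:**
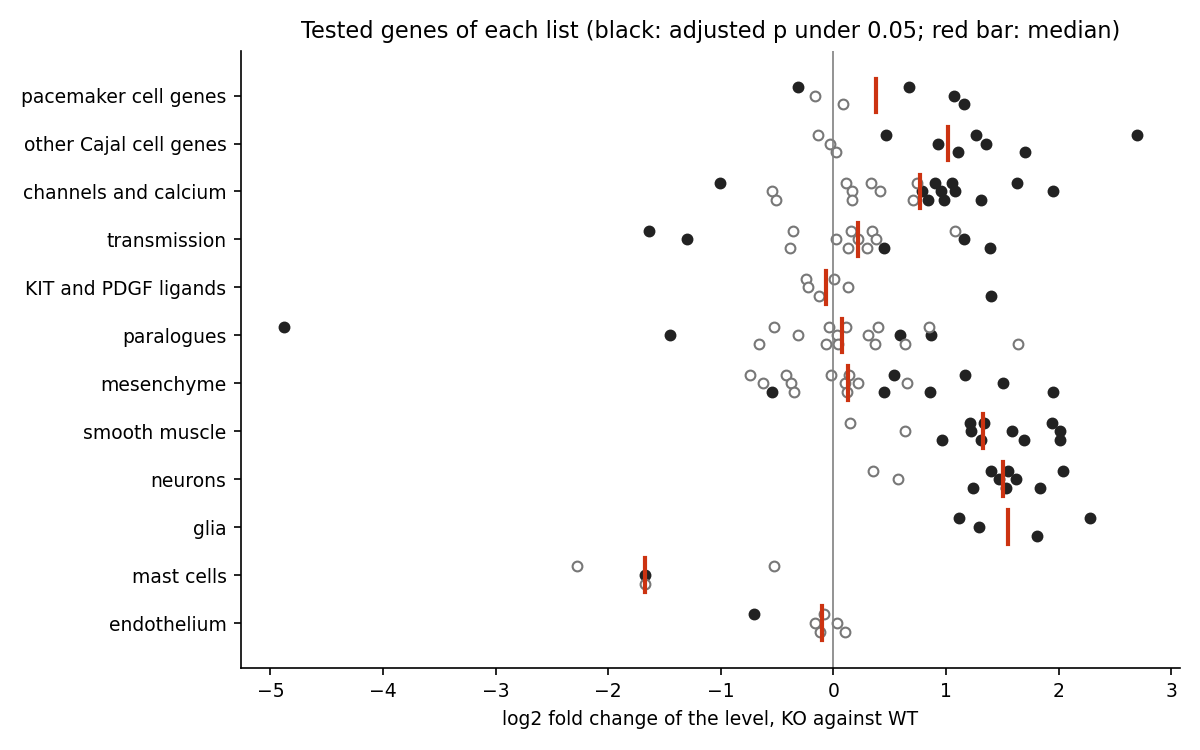
Log2 fold change of the level, KO against WT (horizontal axis), of the tested genes of 12 lists (rows), with 1 circle per gene, filled where the edgeR adjusted p is under 0.05, and a red bar at the median of the list. The medians of smooth muscle (1.33), neurons (1.5) and glia (1.55) lie to the right of that of the 6 members (0.38), and that of the mast cell genes lies to the left of 0 at -1.67.

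The genes whose pattern over the 10 libraries was closest to each member were taken by the root mean square difference of log2 CPM, after each gene was centred on its own mean. For *Kit* these were *C1qtnf6* (0.16), *Acss1* (0.17) and *Bicd1* (0.19), against a median of 0.72 over all genes and 0.51 for *Myh11*. For *Ano1* they were *Gnai1* (0.11), *Tns1* (0.12) and *Reep5* (0.14), with *Myh11* at 0.40, and for *Etv1* they were *Lamb2* (0.11), *Anxa5* (0.11) and *Mtss1l* (0.12). *Kit* and *Ano1* differed from each other by 0.27, less than either did from *Myh11*.

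For *Pdgfra* the closest were the collagen genes *Col6a1* (0.10) and *Col6a3* (0.11) and the transcription factor gene *Tshz1* (0.13), against 0.46 for the median gene and 0.97 for *Myh11*. For *P2ry1* they were *Arhgef18* (0.064), *Lrrfip1* (0.071) and *Tbc1d1* (0.075), with *Pdgfra* at 0.23. For *Kcnn3* they were *Foxred2* (0.044), *Prkd3* (0.13) and *Notch2* (0.13). A gene with small differences between libraries has close neighbours for that reason alone, and the median over all genes was 0.37 for *P2ry1* and 0.44 for *Kcnn3*, lower than for *Kit*.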

How the data were processed

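RNA-seq libraries of 10 single mice, 5 WT and 5 KO, were read from the deposited files. The authors deposited whole-number counts of reads per Ensembl gene ID, without normalization, 1 table per mouse. The labels give TRI Reagent extraction of total RNA and a SMARTer mRNA-Seq kit, and the submitters' processing notes name FastQC 0.11.9, Trimmomatic, HISAT2 2.0.4, SAMtools 1.3.1, DESeq2 1.14.1 and GRCm38 (mm10). Which counter and annotation were used, and whether strand was heeded, is not given in the sources used here.

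Gene IDs were matched to GENCODE M21, which gave a symbol for 34490 of 35275. Counts were tested with edgeR 4.0.16 (R 4.3.3) by its quasi-likelihood test, after TMM scaling and filterByExpr (minimum count 10, minimum total 15), with Benjamini-Hochberg adjustment over all 15610 genes kept and a threshold of 0.05. Median totals were 18206101 counts in WT and 18146070 in KO mice, and a count of 0 may stand for up to 3 counts, for counting error only. For a ratio to *Myh11* or *Pdgfra*, each library was scaled to its count of that gene in place of TMM. Standard errors and 95% intervals are those of the edgeR model. Log2 CPM have a prior count of 2. The tests were also run on simulated counts with few changed genes, raised and lowered in balance, and with *Myh11* unchanged. Here 29.9% of the genes were called and *Myh11* rose, so that run does not vouch for the calls in these data. Levels per kilobase use the summed exon length of all transcripts of a gene, although a mouse tissue may use only some of them.

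The 6 members, the lists and the rule for named genes were chosen with earlier results of these data known. Named were the members, *Myh11* and *Slc39a14*, of each list of the interstitial cells at most 4 called genes in each direction by size of change and the gene highest per kilobase, of each other list its first 3 genes where used, and the 3 genes closest to each member in pattern. Some genes that this rule names are not reported here. Alternatives were DESeq2 1.42.0, RLE scaling, library size only, a mean count of at least 10 or no filter, a robust fit, *Myh11* as a covariate, the smooth muscle list in place of *Myh11*, an exact permutation test, the replicate number as a block, and leaving out each mouse. Promoter windows are from RefSeq (GRCm38.p6).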

Additional observations from a re-analysis of the deposited data

Results flagged for a closer look

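Within each group of 5 mice, the highest and the lowest library were checked for a gap to the others by Dixon's test at the 95% level, for the 65 named genes in 118 groups. A gap was found in 16, where chance gives about 1 in 20 groups. None of them touched *Kit*, *Ano1*, *Etv1*, *Kcnn3*, *P2ry1* or *Myh11*. Among the members, *Pdgfra* in WT replicate 2 was below the other WT libraries, at 71.1 CPM against 79.1 to 82.2.

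KO replicate 4 was the highest of its group in 9 of the 16. These were *Ano10* (84.7 CPM, others 67.8 to 72.6), *Kcnj8* (61.8, others 18.1 to 28.3), *Adcyap1r1* (20.5, others 6.23 to 8.96), *Prkcq* (20.7, others 6.47 to 9.38), *Acta2* of smooth muscle (1669, others 490 to 671), *Elavl4* of neurons (11.5, others 2.62 to 4.39), and the mesothelial genes *Msln* (7.90, others 1.31 to 2.64), *Upk3b* (20.7, others 2.80 to 7.20) and *Wt1* (3.0, others 0.485 to 0.995). The same library had the highest *Myh11*, *Ano1* and *Etv1*. Without it the log2 fold change of *Ano1* was 0.91 (edgeR adjusted p = 0.0213), that of *Kit* 1.20 (adjusted p = 0.00780) and that of *Etv1* 0.45 (adjusted p = 0.0602).

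KO replicate 1 was the highest of its group in the deleted gene *Slc39a14* (160 CPM, others 78.4 to 93.6), in *Ano6* (745, others 82.5 to 192) and in *Pde5a* (182, others 140 to 146). Without it *Kit* changed by 1.23 (adjusted p = 0.00405), *Ano1* by 1.20 (adjusted p = 0.00434), *Etv1* by 0.75 (adjusted p = 0.0242) and *P2ry1* by -0.34 (adjusted p = 0.0240). *Ano3* was highest in WT replicate 2 (9.75 CPM, others 1.54 to 2.91), *Msln* in WT replicate 5 (4.31, others 0.637 to 1.55) and the acinar gene *Cpa1* in KO replicate 2 (3.46, others 0.225 to 0.314).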

How the results depend on the processing

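With *Myh11* as a covariate, whose groups do not overlap, edgeR called 163 genes in all and 0 members higher or lower: *Kit* changed by 0.94 (adjusted p = 0.259), *Ano1* by 0.46 (0.570), *Etv1* by 0.074 (0.929) and *P2ry1* by -0.22 (0.517), while *Kcnn3* (-0.21) and *Pdgfra* (0.11) changed sign, both uncalled throughout. *Etv1* lost its call with no filter (0.64, adjusted p = 0.0510). With library size only, the median gene moved by 0.15, calls in the higher direction went from 53.5% to 69.2% of all calls, and *P2ry1* lost its call (-0.19, adjusted p = 0.156), leaving 0 members lower. Relative to *Myh11*, *Etv1* was lower with the smooth muscle list in its place (-0.61, adjusted p = 0.0411) and by an exact permutation test of the log2 ratio (-0.62, unadjusted p = 0.0397), and *Kit* turned to -0.019 and -0.13, without a call. *Pdgfa* turned to -0.013 by DESeq2, -0.0076 with RLE scaling, -0.00075 with the mean count minimum and -0.021 with no filter. DESeq2 called 5 mast cell genes lower and 5 transmission genes higher. The cause of these shifts was not tested.

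Replicate numbers are shared by the groups. The correlations of same-numbered libraries, between -0.17 and 0.18, are too few to tell whether the numbers pair mice. For replicate 4 the value was above the highest with another number (0.18 against 0.027), and for the others it was below. With the number as a block, the standard error of *Myh11* was 0.19 in place of 0.30, and that of *Kit* 0.26 in place of 0.23. The ratios of *P2ry1*, *Pdgfra* and *Kcnn3* to *Myh11* stayed called lower (edgeR adjusted p = 2.0e-05, 7.8e-05 and 0.00077). With the replicate block, 3848 genes were called in place of 4661, *Etv1* lost its call in level (0.62, adjusted p = 0.0589) and against *Pdgfra* (0.84, adjusted p = 0.0686), its ratio to *Myh11* was called (-0.63, adjusted p = 0.0486), the ratio of *Kit* to *Myh11* was -0.13 and *Pdgfa* was -0.020.

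With each library left out, the ranges were 0.45 to 0.75 for *Etv1*, -0.36 to -0.25 for *P2ry1* and -0.0068 to 0.23 for *Kcnn3* in level, with 2 to 3 members higher and 0 to 1 lower. They were -0.30 to 0.22 for *Kit* and -0.83 to -0.47 for *Etv1* against *Myh11*, 0.62 to 1.10 for *Etv1* and -0.18 to 0.011 for *P2ry1* against *Pdgfra*, -0.12 to 0.063 for *Pdgfa*, and 19 (without WT replicate 2) to 31 higher and 5 to 10 (without KO replicate 1) lower genes over the 6 interstitial lists, against 29 and 6 with all libraries. No member or ligand was below the filter on low counts, so that the permutation test for such genes gave no value. *Etv1* and *Kcnn3* had the fewest counts of the members, with 81 to 331 and 96 to 189 per library.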
